A study of Mus musculus with 6 samples.

Results

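The 8 genes that encode the subunits of the cytosolic chaperonin TRiC, *Tcp1*, *Cct2*, *Cct3*, *Cct4*, *Cct5*, *Cct6a*, *Cct7* and *Cct8*, were followed through the transcriptomes of control and *Thada*-activated MIN6 cells. They were picked by gene symbol from the 16640 genes with a count, and all 8 passed the filter on low counts that left 12516 genes for testing. The choice was made with earlier results in view, for the contrast between conditions and for the contrast of replicate 3 with replicates 1 and 2. The members' values in both contrasts are therefore a description and support nothing further.

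TRiC is a barrel of a pair of stacked rings, each built from the same set of different but related subunits in a fixed order, and it uses ATP to close over an unfolded protein and let it fold inside. Actin and tubulin are its best known clients, and they reach it in part through the cochaperone prefoldin. One side of each ring, made of CCT5, CCT2, CCT4 and the *Tcp1* product CCT1, binds ATP more tightly than the opposite side, made of CCT3, CCT6, CCT8 and CCT7.

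MIN6 is a β-cell line from a mouse insulinoma. Control cells carried dCas9 and a non-targeting sgRNA from lentiviruses, and *Thada*-activated cells received a lentivirus for dCas9-VP64 followed by a lentivirus for sgRNA-MS2-P65-HSF1 with a guide to the *Thada* promoter, under puromycin and then G418, and were kept as a stable line. Total RNA of 3 libraries per condition was sequenced on the BGISEQ-500 platform, and library totals ran from 17166511 to 17727004 counts. The labels number the replicates of both conditions 1 to 3 without saying what a number marks. The authors describe their cell culture work in general as repeated independently, with no statement for these libraries, so the p-values cover only the spread between them. Whether the control cells carried the VP64 and P65-HSF1 parts, and how they were selected, is not given in the sources used here, and effects of these parts cannot be told apart from that of *Thada* activation. The target itself, *Thada*, had by replicate number 479, 497 and 300.0 counts in control cells and 1018, 977 and 864 counts in activated cells, so the groups did not overlap. Its log2 fold change was 1.13 (SE 0.22, adjusted p = 1.00 with edgeR's quasi-likelihood method and Benjamini-Hochberg adjustment) and, in a fit blocked by replicate number, 1.15 (SE 0.10, adjusted p = 0.00041 by the same test).

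All 6 β-cell markers examined were present in every library. The insulin gene *Ins2* led, with a mean CPM (count scaled by the library total) of 72108, ahead of *Iapp*, which encodes the cosecreted islet amyloid polypeptide, with 29906 CPM and the other insulin gene, *Ins1*, with 3312 CPM. The β-cell transcription factors *Pdx1*, *Nkx6-1* and *Mafa* had means of 184, 153 and 71.3 CPM. Of 8 markers of other islet or pancreatic cells, 6 had a row in the table, and none of the 6 was at or under 3 counts in every library. The most abundant was *Sst*, the somatostatin gene, with a mean of 114 CPM, ahead of *Ppy* with 24.8 CPM and *Gcg* with 18.6 CPM, while *Krt19*, *Col1a1* and *Pecam1* had means of 1.05, 2.03 and 0.640 CPM.

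The libraries of replicate 3 stood apart from those of replicates 1 and 2 in both conditions. With condition as a term, 3893 of 12516 genes differed between replicate 3 and the others. The rule was an adjusted p under 0.05 and a fold change over 1.5. By the same rule, 0 genes differed between conditions without a block and 19 with the replicate block. With a replicate 3 term, a fit chosen after seeing the data, 42 did. The contrast of replicate 3 takes the libraries as independent, although those of the same number deviated together. Replicates 1 and 2 did so slightly more across numbers than within them, so the correlations set apart number 3 alone. Markers moved with the split of replicate 3 from the others. By replicate number, *Ins2* had 1100071, 969578 and 1796192 counts in control cells and 1141845, 1093792 and 1440219.9 in activated cells, and *Pdx1* had 3970.0, 3514 and 1841 counts in control cells and 4064, 3866 and 1975 in activated cells. *Ins1* was likewise higher in replicate 3 of each condition, and *Iapp*, *Nkx6-1* and *Mafa* were lower. The summed CPM of the 6 markers of other cells was 198, 169 and 114 in control cells and 188, 177 and 123 in *Thada*-activated cells by replicate number, a fall carried mainly by *Sst*, which had 2665, 2217 and 1202 counts in control cells and 2542, 2276 and 1019 in activated cells. The other 5 did not fall together: *Gcg* and *Krt19* were lower in replicate 3 of each condition, and *Ppy*, *Col1a1* and *Pecam1* were higher. *Krt19* differed more between conditions, with 9, 9 and 6 counts in control and 42, 26 and 18 in activated cells by replicate number, so the groups did not overlap. Its log2 fold change was 1.79 (SE 0.42, adjusted p = 1.00 with edgeR's quasi-likelihood method and Benjamini-Hochberg adjustment) and, blocked by replicate number, 1.78 (SE 0.32, adjusted p = 0.0548 by the same edgeR test). Library totals did not move with the split, since those of replicate 3 were 17689611 in control and 17224631 in *Thada*-activated cells. The part of these markers in the differences between replicates or conditions was not tested. In RNA from whole cultures, fewer cells with a transcript and less of it per cell cannot be told apart.

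The subunit transcripts together made up a small part of each library. On library sizes scaled by TMM, edgeR's trimmed mean of M-values, which is the scale of every CPM of a subunit or related gene, their summed CPM by replicate number was 1633, 1726 and 1943 in control cells and 1628, 1597 and 1801 in *Thada*-activated cells. The sum was highest in replicate 3 within each condition, and the conditions overlapped. As a share of all counts it was by replicate number 0.161%, 0.173% and 0.191% in control cells and 0.163%, 0.160% and 0.184% in *Thada*-activated cells. In pairs 2 and 3 of the same number the sum was lower in activated cells on both scales, while in pair 1 the direction depended on the scale. The difference was not tested. Single subunits had from 1468 counts, for *Cct3*, to 8596 counts, for *Tcp1*.

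The level per length of transcript was read from FPKM, fragments scaled by transcript length and library size. *Tcp1* led with 164 ± 26.6 FPKM (mean ± SD, n = 6 libraries). *Cct5* at 140.5 ± 30.8 FPKM, *Cct2* at 126 ± 8.01 FPKM and *Cct7* at 124 ± 3.53 FPKM came next. *Cct8* at 86.8 ± 10.3 FPKM, *Cct4* at 80.7 ± 25.6 FPKM, *Cct6a* at 70.8 ± 5.47 FPKM and *Cct3* at 62.8 ± 12.8 FPKM closed the order. *Tcp1*, *Cct5*, *Cct2* and *Cct7* thus had the higher means. This order rests on a mean over libraries of different make-up. *Cct5* ranked 4 in 3 of the 4 libraries of replicates 1 and 2 and 2 in both libraries of replicate 3, with mean levels of 121 and 180.0 FPKM. *Cct4* ranked 8 in the 4 libraries of replicates 1 and 2 and 5 in both libraries of replicate 3, with mean levels of 64.3 and 113.3 FPKM. *Cct3* ranked 8 in the libraries of replicate 3 alone. In an exact two-sided sign-flip permutation test of the log2 difference between neighbours over the 6 libraries, *Tcp1* over *Cct5*, *Cct7* over *Cct8* and *Cct6a* over *Cct3* each had p = 0.0312, the smallest value the test can give, with an adjusted p of 0.0729 over the 7 pairs. Each of those 3 pairs kept its order in 6 of 6 libraries, with mean log2 differences of 0.23, 0.52 and 0.20. The other 4 neighbours had adjusted p from 0.693 to 0.844 by the same exact permutation test. The test takes the libraries as independent, and those of the same number deviated together. Over the means of the 3 numbers, an alternative chosen after seeing the data, the same exact permutation test gave p = 0.25 for each of the 3 pairs, the smallest it can give. No neighbours differed at an adjusted p under 0.05 over the 6 libraries. The test over the 3 numbers could not reach 0.05 for any pair and decides nothing. The order tested was set from the same libraries. *Cct2* and *Cct7* exchanged ranks without control replicate 3 and when counts were divided by the GENCODE transcript length.

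Between conditions, no subunit stood out, and the 8 transcripts lay within a narrow band just below the control level. Of the 8 subunits, 0 were called in edgeR's quasi-likelihood test against a background of 0% of genes, and 0 reached an unadjusted p under 0.05 against 0.807% of genes. DESeq2's Wald test called 0 of 8 as well, and 5 genes of the whole table. The log2 fold change relative to control ran from −0.13 for *Cct8* to −0.01 for *Cct5*, with unadjusted p from 0.411 to 0.960 and an adjusted p of 1.00 for each by the edgeR quasi-likelihood test with Benjamini-Hochberg adjustment. The median over the 8 was −0.08, and that over all genes tested was 0.00. Without control replicate 3 the median over the 8 was −0.02. The median size of the change was 0.08 for the subunits and 0.08 for all genes.

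All 8 fold changes were below 0, as were those of 51.3% of genes, except that *Cct5* lay at 0.00287 with library sizes that left out the 20 genes with the most counts. The groups overlapped in CPM for 8 of 8 subunits, so 0 of 8 were without overlap, against 5.40% of genes. In pairs of libraries with the same replicate number, 3 of 8 subunits were lower in *Thada*-activated cells in replicate 1 (49.9% of genes), 8 of 8 in replicate 2 (49.8% of genes) and 7 of 8 in replicate 3 (50.8% of genes). Only *Cct3* and *Cct8* were lower in all 3 pairs, that is 2 of 8 subunits against 16.7% of genes. Neither the labels nor the correlations across genes show that replicates 1 and 2 pair by number. Leaving out control replicate 3 turned *Tcp1*, *Cct4* and *Cct5* to 0.07, 0.26 and 0.19. Leaving out *Thada*-activated replicate 3 turned *Cct3* and *Cct6a* to 0.09 and 0.01. *Cct3* was also above 0 without control replicate 1 (0.03) or control replicate 2 (0.03). *Cct4* and *Cct5* were above 0 without *Thada*-activated replicate 1 (0.02 and 0.09) or replicate 2 (0.03 and 0.09). These fits have no replicate term, so a condition left without its replicate 3 library also differs from the other in the share of replicate 3.

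In the fit blocked by replicate number, 8 of 8 fold changes were below 0, against 50.3% of genes, and their errors shrank to about 0.06. They ran from −0.12 for *Cct8* to −0.02 for *Cct5*, with a median of −0.08, unadjusted p from 0.0815 to 0.734 and adjusted p from 0.551 to 0.931 with edgeR's quasi-likelihood method and Benjamini-Hochberg adjustment. Of the 8 subunits, 0 were called and 0 had an unadjusted p under 0.05, against 0.152% and 10.4% of genes. In replicates 1 and 2 alone, a fit chosen after seeing the data, *Cct8* had the lowest adjusted p of the 8, at −0.17 (SE 0.05, adjusted p = 0.0563 by the same edgeR test). The other 7 then lay between −0.10 and −0.02, the median over the 8 was −0.05, and 0 of 8 were called, beside 68 genes of the whole table. All 8 were below 0 there and in a fit with replicate 3 as a term, also chosen after seeing the data. The shared direction is a description, and no subunit was called in any of these edgeR fits. An unadjusted p under 0.05 was reached by 1 of 8 subunits in replicates 1 and 2 alone, beside 1970 of 12480 genes, and by 1 of 8 with the replicate 3 term, beside 1661 of 12516 genes, so neither count stood above the background in these edgeR fits.

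**Figure D1:**
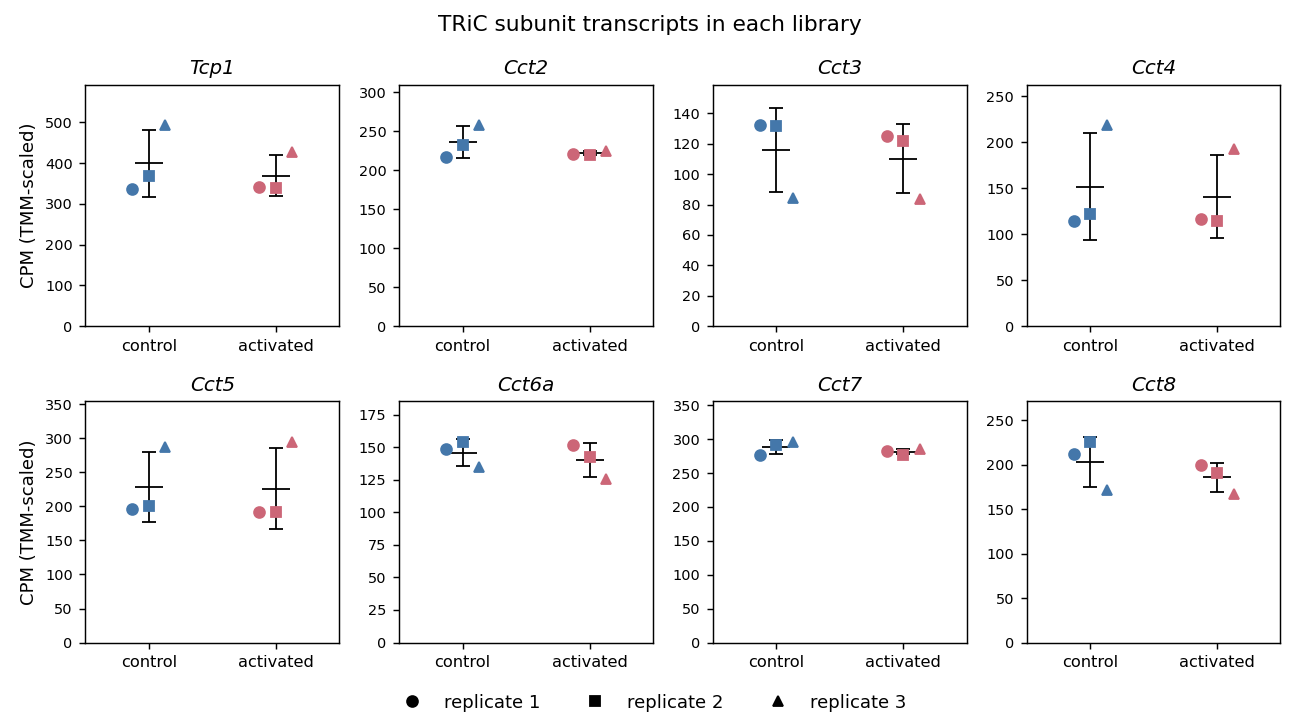
CPM on TMM-scaled library sizes (vertical axes, each from 0) of each subunit in control and *Thada*-activated (activated) libraries, with the replicate number as the symbol and the mean and SD of 3 libraries as the bar. The triangles of replicate 3 lie above the other symbols for *Tcp1*, *Cct4* and *Cct5* and below them for *Cct3*, *Cct6a* and *Cct8*, while the conditions overlap in all 8 panels.

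Between replicate 3 and replicates 1 and 2, the subunits moved apart, and in the same direction in control and in *Thada*-activated cells. *Cct4*, *Cct5* and *Tcp1* were higher in both libraries of replicate 3 than in the other 4, and *Cct3*, *Cct8* and *Cct6a* were lower. *Cct2* and *Cct7* overlapped. Without overlap were thus 6 of 8 subunits, against 71.8% of genes (35.9% higher and 35.9% lower in replicate 3), which is close to the background and not a result about the subunits.

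*Cct4* and *Cct5*, whose products each assemble into rings of their own when made alone in bacteria, lie on the side of the ring that binds ATP tightly. In replicates 1, 2 and 3 in turn, *Cct4* had a CPM of 114, 121 and 219 in control cells and of 116, 114 and 193 in *Thada*-activated cells. Both libraries of replicate 3 were high, and the conditions overlapped. Its log2 difference was 0.82 (SE 0.06, adjusted p = 1.65e-08 with edgeR's quasi-likelihood method and Benjamini-Hochberg adjustment), a 1.76-fold higher level, and was 0.89 within control and 0.74 within *Thada*-activated cells. *Cct5* had a CPM of 197, 200.2 and 288 in control cells and of 191, 192 and 295 in *Thada*-activated cells, in the same order. It too was high in replicate 3 alone, in both conditions. The log2 difference of *Cct5*, 0.58 (SE 0.05, adjusted p = 2.23e-07 by the same edgeR test), lay just under the log2 threshold of 0.585. It was 0.62 and past that threshold without control replicate 3 or with library sizes that left out the 20 genes with the most counts.

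*Tcp1*, the gene that gave the complex its name, had a CPM of 335, 369 and 493 in control cells and of 342, 339 and 426 in *Thada*-activated cells, by replicate number. It was again highest in replicate 3 of each condition, by a log2 difference of 0.41 (SE 0.06, adjusted p = 2.59e-05 with edgeR's quasi-likelihood method and Benjamini-Hochberg adjustment). *Cct2*, a gene mutated in a form of Leber congenital amaurosis, completed this side of the ring. It ranged from 217 to 258 CPM, with a log2 difference of 0.12 (SE 0.06, adjusted p = 0.0926 by the same edgeR test), and was 0.20 higher in replicate 3 within control but 0.03 within *Thada*-activated cells.

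On the weakly ATP-binding side, *Cct3* had a CPM of 132, 132 and 84.2 in control cells and of 125, 122 and 83.8 in *Thada*-activated cells, by replicate number. The libraries of replicate 3 were low in both conditions, by −0.64 within control and −0.56 within *Thada*-activated cells on the log2 scale. Its log2 difference was −0.60 (SE 0.06, adjusted p = 3.80e-07 with edgeR's quasi-likelihood method and Benjamini-Hochberg adjustment), just past the fold threshold, and it lay at −0.56 and short of that threshold without control replicate 3 or with library sizes that left out the 20 genes with the most counts. *Cct8* had a CPM of 211, 226 and 171 in control cells and of 199, 190.2 and 167 in *Thada*-activated cells, in the same order. It was low in replicate 3 of each condition, by −0.29 on the log2 scale (SE 0.06, adjusted p = 0.00059 by the same edgeR test). *Cct6a* ranged from 126 to 154 CPM and was lower in replicate 3 by a log2 difference of −0.20 (SE 0.06, adjusted p = 0.00652 by the same edgeR test). *Cct7*, between 277 and 296 CPM in all 6 libraries, had a log2 difference of 0.04 (SE 0.05, adjusted p = 0.496 by the same edgeR test). The sides of the ring only order the subunits in the text, and whether transcripts differ by side was not tested.

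By the rule with both an adjusted p and a fold change, 2 of 8 subunits were called, *Cct4* higher and *Cct3* lower, against 31.1% of genes (15.7% higher and 15.4% lower). By adjusted p alone, 6 of 8 differed, 3 higher and 3 lower, against 68.6% of genes (34.3% higher and 34.4% lower). The 2 called subunits were *Cct4* and *Cct5* instead without control replicate 3 or with library sizes that left out the 20 genes with the most counts. By adjusted p alone, *Cct2* was added, making 7 of 8, with those library sizes (adjusted p = 0.0239 with edgeR's quasi-likelihood method) and without *Thada*-activated replicate 3 (adjusted p = 0.00368 with the same edgeR method). Both counts were near the background and are not a result about the subunits. The median size of the log2 difference was 0.35 for the subunits and 0.38 for all genes, and the SD of the signed differences was 0.47 and 0.70. The signed median was 0.08 for the subunits, and it moved to 0.12 with library sizes that left out the 20 genes with the most counts, to 0.03 without control replicate 3 and to 0.13 without *Thada*-activated replicate 3. A difference above 0 was found for 5 of 8 subunits and 50.1% of genes.

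**Figure D2:**
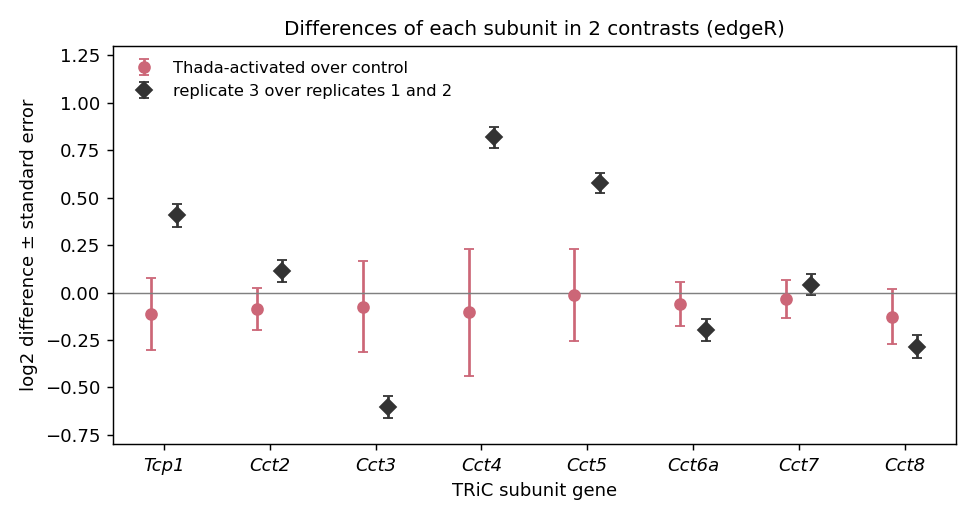
The log2 difference with its standard error (vertical axis) of each subunit (horizontal axis) for *Thada*-activated over control cells (circles) and for replicate 3 over replicates 1 and 2 (diamonds), both from edgeR on 6 libraries. The circles lie between −0.13 and −0.01, and the diamonds between −0.60 for *Cct3* and 0.82 for *Cct4*. Not plotted is the fit with library sizes that left out the 20 genes with the most counts, where *Cct5* lay at 0.00287 between conditions.

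The make-up of the subunit transcripts was examined next, since a ratio within a library does not depend on how the library was scaled. In replicates 1 and 2 of both conditions, *Cct4* held from 7.79% to 7.96% of the summed FPKM of the 8 subunits and was the lowest of them. In replicate 3 it held 12.4% in control and 11.8% in *Thada*-activated cells and ranked 5 of 8. *Cct3* moved the other way, from between 8.55% and 9.07% in the 4 libraries of replicates 1 and 2 to 4.82% and 5.15% in those of replicate 3, where it was the lowest. Within replicates 1 and 2 the conditions differed by less than these shifts.

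The FPKM of *Cct4* over that of *Cct3* was 0.859, 0.918 and 2.58 in control and 0.924, 0.931 and 2.29 in *Thada*-activated replicates 1, 2 and 3. The ratio thus passed 1 in the libraries of replicate 3 alone. *Cct5* over *Cct8* was 1.29, 1.23 and 2.33 in control and 1.33, 1.40 and 2.43 in *Thada*-activated replicates 1, 2 and 3. *Cct2* and *Cct7* stayed level with each other, with ratios between 0.988 and 1.10. The pairs for these ratios were not planned. They join subunits by the replicate 3 differences given above, so the ratios restate that contrast and support nothing further. The share of *Tcp1* was from 17.7% to 18.4% in replicates 1 and 2 and was 21.7% and 20.2% in replicate 3, and that of *Cct5* was from 14.5% to 15.0% and then 18.4% and 20.2%.

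**Figure D3:**
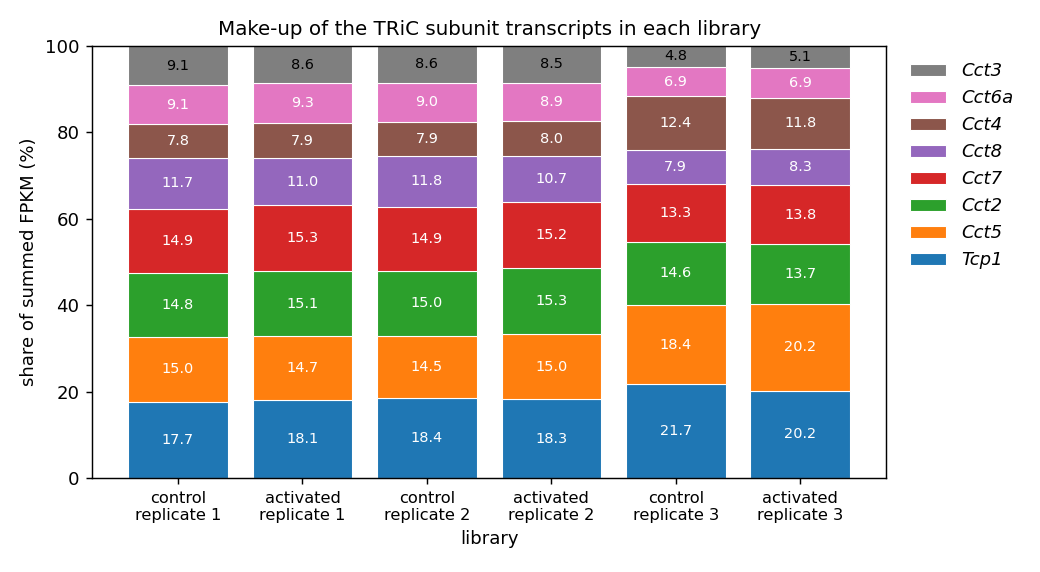
Share of each subunit in the summed FPKM of the 8 subunits (vertical axis, %) in each of the 6 libraries (horizontal axis), stacked in the order of the mean level and ordered by replicate number. The 4 bars of replicates 1 and 2 look alike, and in the 2 bars of replicate 3 *Cct4* takes 12.4% and 11.8% and *Cct3* 4.82% and 5.15%.

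The mean profile of the 8 subunits over the 6 libraries was nearly flat, from −0.08 to 0.12 in centred log2 CPM. Subunits that rose and fell in replicate 3 offset each other in this mean. Among 9730 genes with a mean of at least 10 CPM, those nearest to this profile by root mean square distance of centred log2 CPM were *Poc5* (0.02), *Tmem185a* (0.02), *Epb41l2* (0.02), *Gtf2e2* (0.02) and *Arpc3* (0.02). They are near by selection, and a gene that varies little lies near a flat profile. Of the subunits, *Cct2* (0.03, rank 61) and *Cct7* (0.04, rank 78) lay near this mean, and *Cct4* (0.33, rank 7632) and *Cct3* (0.34, rank 7660) far from it. The mean therefore described *Cct2* and *Cct7* and not the subunits that moved apart.

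Genes that work with TRiC were read from lists of 67 genes. Between conditions, 0 genes of any list were called in edgeR's quasi-likelihood fits, blocked or not, so the lists are given by the median log2 fold change and by the 2 genes with the most counts in each. The actins, clients of TRiC, had a median of 0.10, with *Actg1* at 0.08 (SE 0.18) and *Actb* at 0.11 (SE 0.56). The 15 tubulins had a median of −0.01, with *Tubb5* at −0.10 (SE 0.20) and *Tuba1b* at −0.04 (SE 0.25). Each of these 4 values was smaller than its standard error.

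The 6 tubulin cofactors, which take over tubulin after TRiC, had a median of 0.06 between conditions, with *Arl2* at 0.13 (SE 0.26) and *Tbcd* at 0.03 (SE 0.17). The 16 other clients had a median of 0.03, with *Gnb1* at 0.01 (SE 0.11) and *Gnb2* at 0.06 (SE 0.10). Prefoldin, which carries clients to TRiC, had a median of 0.00 over its 6 genes, with *Vbp1* at −0.09 (SE 0.20) and *Pfdn5* at 0.05 (SE 0.35). The list of HSP70 and HSP90 chaperones and their cochaperones also held the small heat shock protein gene *Hspb1*. The median over the 11 genes of this list was −0.10, with *Hspa8* at −0.13 (SE 0.14) and *Hsp90ab1* at −0.12 (SE 0.15). The mitochondrial chaperonin genes *Hspd1* and *Hspe1* lay at −0.15 (SE 0.11) and −0.02 (SE 0.29), with a median of −0.08.

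The chaperonin relatives of TRiC that assemble the BBSome had a median of −0.05 between conditions over 3 genes, with *Mkks* at −0.05 (SE 0.12) and *Bbs10* at −0.05 (SE 0.20). The phosducin-like and thioredoxin-like cofactors had a median of −0.01 over 3 tested genes, with *Txndc9* at 0.01 (SE 0.12) and *Pdcl3* at −0.08 (SE 0.18). *Pdcl2*, with 2 to 4 counts, was not tested. Of the close relatives of the subunits, *Cct6b*, the testis paralogue of *Cct6a*, had 3, 4 and 17 counts in control and 5, 2 and 25 counts in *Thada*-activated replicates 1, 2 and 3 and was not tested, and *Cct8l1* had no row. *Cct6b* was highest in replicate 3 of each condition, opposite in direction to *Cct6a*.

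Between replicate 3 and replicates 1 and 2, 18 genes of the lists were called, 9 higher and 9 lower. Both actins were lower, *Actb* by a log2 difference of −1.53 (SE 0.06) and *Actg1* by −0.37 (SE 0.05), the former past the fold threshold. The tubulins split in direction, with 3 of 15 called higher, *Tubb2b* at 1.52, *Tuba8* at 1.24 and *Tubb3* at 0.74, and 3 called lower, *Tubb4b* at −0.67, *Tubb6* at −0.60 and *Tuba1b* at −0.59. With library sizes that left out the 20 genes with the most counts, 4 tubulins were called rather than 6. Without any 1 of the *Thada*-activated libraries, 5 were called. Tubulin cofactors had *Tbca* at 0.67 and *Arl2* at 0.62 called higher and 0 called lower, with a median of −0.24 over 6.

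The 6 prefoldin genes were all above 0 in replicate 3, from 0.12 to 0.86 with a median of 0.33. *Pfdn5* was called, at 0.86 (SE 0.06), and 4 of 6 passed the adjusted p alone, all 4 higher, against 68.6% of all genes in either direction and 34.3% higher. With library sizes that left out the 20 genes with the most counts, 2 of the 6 were called. The HSP70 and HSP90 list, with *Hspb1* included, had a median of −0.22. *Hspa1a*, the inducible HSP70, was called higher at 0.62 (SE 0.14) and *Hsph1*, a nucleotide exchange factor of HSP70, was called lower at −1.24 (SE 0.08). *Hspe1* was called higher at 0.70 (SE 0.07), while its partner *Hspd1* lay at −0.16 (SE 0.05).

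*Bbs12* was the called gene of the 3 BBS chaperonins, at −1.48 (SE 0.25), with a list median of −0.18. Of the 16 other clients, *Gnb5*, a G protein β subunit, was called higher at 0.65 (SE 0.07), and *Bbs7*, *Plk1* and *Ccne1* were called lower at −0.77, −0.84 and −0.79, with a median of −0.05. None of the cofactor list was called, with *Pdcl3* at 0.32 (SE 0.09), *Txndc9* at −0.21 (SE 0.07) and a median of 0.32 over 3. Without control replicate 3, the called genes were 7 rather than 4 among the other clients and 1 rather than 2 among the tubulin cofactors. Without control replicate 2 or with limma on log2(FPKM + 1), the HSP70 and HSP90 list had 1 called gene rather than 2. With 31.1% of all genes called in this contrast, none of these counts is particular to the lists.

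The 8 subunit genes lie on 8 different chromosomes of GRCm38 in the GENCODE M21 annotation, so they share no neighbourhood. *Cct4* is at chr11:22990519-23003780 on the plus strand and *Cct5* at chr15:31590800-31601804 on the minus strand. *Tcp1* is at chr17:12915701-12925067 on the plus strand and *Cct2* at chr10:117051001-117063814 on the minus strand. *Cct3* is at chr3:88297116-88321767 on the plus strand and *Cct8* at chr16:87483326-87495873 on the minus strand. *Cct6a* at chr5:129786998-129846371 and *Cct7* at chr6:85451514-85468475 are both on the plus strand. Their longest transcripts run from 1853 to 2484 bases with 43.3% to 54.0% GC. Over 12368 genes, the replicate 3 difference had a Spearman correlation of −0.22 with transcript length and 0.01 with GC, and the log2 fold change between conditions one of −0.14 with length and 0.27 with GC, given as a description, since genes are not independent replicates. Of the 8 subunit transcripts, 6 had a GC content below the median of 50.2% over these genes. The part of length and GC in the subunits' differences was not tested in either contrast.

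Several subunit genes share exonic bases with a gene on the opposite strand, and use of strand in counting is not given in the sources used here, so reads from such stretches cannot be assigned with certainty. *Tcp1* shares 571 bases with *Acat3* and 141 with *Mrpl18*, *Cct6a* 452 with *Psph*, *Cct7* 214 with *Pradc1* and *Cct8* 192 with *Usp16*. Among these partners, the replicate 3 log2 difference was −0.93 for *Usp16*, −0.52 for *Psph*, 0.28 for *Mrpl18* and 0.01 for *Pradc1*. These 4 were on the same side of 0 as the subunit they overlap, but *Pradc1* and *Cct7* (0.04) both lay close to 0. Of all genes tested, 50.1% were above 0. *Acat3* was not tested, and neither was the part of shared reads. *Cct2*, *Cct3*, *Cct4* and *Cct5* share none. The estimated counts of *Tcp1* were not whole in 6 libraries and those of *Cct8* in 5. The processed pseudogenes *Tcp1-ps1* and *Cct3-ps1*, both on chromosome 4, had no row, and the fate of reads that match them is not given in the sources used here. The authors' intervals for 3 subunits run far past the GENCODE gene. That of *Cct4* extends to 23030791 over *Fam161a*, that of *Tcp1* to 12944406 over *Acat3* and into *Acat2*, and that of *Cct6a* to 129863951 over most of *Sumf2* and into *Phkg1*. In the replicate 3 contrast *Fam161a* lay at −0.41 against 0.82 for *Cct4*, *Acat2* at 0.14 against 0.41 for *Tcp1*, and *Sumf2* at 0.29 and *Phkg1* at 1.71 against −0.20 for *Cct6a*.

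RefSeq promoters of GRCm38.p6 were matched by symbol for 7 of the 8 subunits, with 9 start sites. *Cct4* was not among them. In the 250 bases before each start, both strands were searched for the heat shock core in its forms GAANNTTC and TTCNNGAA, CCAAT, the ETS core CCGGAA, the NRF1 motif and the GC box GGGCGG. A GC box was found for 7 of 7 subunits, in 8 of 9 windows, against 32.7% of 32851 promoters. CCGGAA was found for 5 (*Cct2*, *Cct5*, *Cct7*, *Cct8* and *Tcp1*), in 5 of 9 windows, against 12% (3952 of 32851). CCAAT was found for 4 (*Cct3*, *Cct6a*, *Cct7* and *Tcp1*), in 4 of 9 windows, against 33.8%. The heat shock forms were found for *Cct2* alone (GAANNTTC, 6.69% of promoters) and *Cct5* alone (TTCNNGAA, 7.17% of promoters), and the NRF1 motif for *Cct3* alone (3.74% of promoters). The 7 subunits searched thus share the GC box and differ in the rest. The GC content of their windows ran from 45.2% to 66.8%, against a median of 52.4% over all promoters. Only the window at 45.2%, of *Cct5*, lay below that median. The part of GC content in the GC box matches was not tested. A match is a description and not a site or a cause, and no match says only that the letters are not in the window.

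The windows of *Cct3*, *Cct8* and *Cct5* are printed 5′ to 3′ on the strand of the gene because these subunits moved apart between replicate 3 and the others, with matches to the motifs on either strand in capitals. *Cct3* is chr3:88296885-88297134 on the plus strand, *Cct8* chr16:87495870-87496119 on the minus strand and *Cct5* chr15:31601847-31602096 on the minus strand, all from RefSeq on GRCm38.p6. *Cct5* has another start site, whose window, chr15:31601540-31601789, lies inside the GENCODE gene and is not printed, and its CCGGAA match is in that window alone. The GAANNTTC match of *Cct2* is likewise in the window inside the gene. The last bases of the *Cct3* and *Cct8* windows fall inside the start of the GENCODE transcript, and the printed *Cct5* window lies upstream of it.
Cct3: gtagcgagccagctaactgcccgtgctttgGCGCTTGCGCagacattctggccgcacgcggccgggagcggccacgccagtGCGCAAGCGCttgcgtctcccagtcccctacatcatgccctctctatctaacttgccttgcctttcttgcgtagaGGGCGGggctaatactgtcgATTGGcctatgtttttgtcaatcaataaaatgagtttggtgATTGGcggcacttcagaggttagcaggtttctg
Cct8: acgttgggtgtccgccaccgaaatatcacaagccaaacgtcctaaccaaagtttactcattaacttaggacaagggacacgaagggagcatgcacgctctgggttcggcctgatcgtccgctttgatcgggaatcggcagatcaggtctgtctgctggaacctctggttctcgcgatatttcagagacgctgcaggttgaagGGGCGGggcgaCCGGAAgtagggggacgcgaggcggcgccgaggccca
Cct5: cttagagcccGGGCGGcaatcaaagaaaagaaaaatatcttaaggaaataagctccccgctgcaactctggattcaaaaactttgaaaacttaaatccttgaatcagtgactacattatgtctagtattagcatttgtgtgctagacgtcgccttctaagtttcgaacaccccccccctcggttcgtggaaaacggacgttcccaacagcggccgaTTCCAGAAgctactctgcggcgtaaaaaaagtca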

How the data were processed

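Total RNA of 6 MIN6 libraries was sequenced by the authors. The submitters' processing notes name GRCm38, Bowtie2, RSEM and DESeq2 without roles or versions. The authors deposited estimated counts per gene for each library, not normalized, and these expected counts were rounded to whole numbers here. The authors also deposited FPKM values, scaled by gene length and library size. Of the series table's per-sample columns, 12 (counts again and TPM) were not used, nor were the authors' own DESeq2 columns (fold changes, p-values and q-values). A table line broken inside a text cell was read from its first part, which holds all values used.

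Counts were tested in R 4.3.3 with edgeR 4.0.16 (TMM, filterByExpr by condition, robust quasi-likelihood) on all 12516 genes that passed, with Benjamini-Hochberg adjustment over them. A gene was called at an adjusted p under 0.05 and a fold change over 1.5. The SE was derived from the test statistic. Replicate 3 was contrasted with replicates 1 and 2 with condition as a term. DESeq2 1.42.0 and limma 3.58.1 served as alternatives. Neighbours in FPKM were compared by an exact sign-flip permutation test. The code was tested on simulated data.

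Members and lists were chosen with earlier results of these data known. The named genes were the 8 subunits, *Thada*, the called members of each list or else the 2 with the most counts, and the 5 genes nearest the subunits' mean profile, and genes that overlap a subunit were added after seeing the data. Same-numbered libraries were taken as pairs because their deviations from the condition means correlated across genes in each pair (0.746, 0.740 and 0.895 for numbers 1, 2 and 3). Crossed numbers 1 and 2 correlated slightly more (0.770 and 0.769). The correlations therefore pair number 3 and do not settle how 1 and 2 pair. No libraries were duplicates, since chi-square per degree of freedom within a condition was at least 1.81. Protein sequences were not analysed here.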

Additional observations from a re-analysis of the deposited data

How the results depend on the processing

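No subunit was called between conditions under any setting run, including the replicate block, where the median over the 8 was −0.08. The block called *Thada* and changed no other call among the genes named. Genes called between conditions, 0 as reported, were 5 with DESeq2's Wald test, 19 with the replicate block, 28 with the block and no fold threshold and, in fits chosen after seeing the data, 42 with a replicate 3 term and 68 in replicates 1 and 2 alone. Leaving out each library in turn moved the log2 fold change of *Tcp1* between −0.23 and 0.067, *Cct3* between −0.26 and 0.089, *Cct4* between −0.40 and 0.26, *Cct5* between −0.25 and 0.19 and *Cct6a* between −0.12 and 0.010, while *Cct2*, *Cct7* and *Cct8* stayed below 0, and the median over the 8 ran from −0.10 to −0.016. *Cct5* lay at 0.00287 with library sizes that left out the 20 genes with the most counts. The fits without a library have no replicate term. With the block, with a replicate 3 term and in replicates 1 and 2 alone, 8 of 8 were below 0. Between replicate 3 and the others, each of the 8 subunits kept its sign under every setting run. The median, 0.08 as reported, was 0.12 with library sizes that left out the 20 top genes and ran from 0.028 to 0.13 without single libraries. With no fold threshold, 6 subunits, 50 genes of the lists and 8592 genes of the table passed, against 2, 18 and 3893 with it, because the rule is wider. The SE of a subunit between conditions was up to 0.33 as reported, without the block (*Cct4*), against 0.064 for the same gene with the block, and no subunit was called either way.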
